A study of Mus musculus with 8 samples.

Results

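Neurotrophins are secreted proteins that keep sensory neurons alive and attract their processes. In the cochlea the sensory epithelium supplies neurotrophin 3 and brain-derived neurotrophic factor, and the neurons of the spiral ganglion carry their receptors. The Trk receptors are tyrosine kinases at the cell surface: TrkB, encoded by Ntrk2, binds brain-derived neurotrophic factor and neurotrophin 4, and TrkC, encoded by Ntrk3, binds neurotrophin 3. The p75NTR receptor, encoded by Ngfr, binds all neurotrophins and, together with sortilin, binds their uncleaved precursors. The genes described are these 6, chosen by name for their function: the ligand genes Ntf3 and Bdnf, the Trk receptor genes Ntrk2 and Ntrk3, and Ngfr and Sort1. They are 6 of the 78317 genes in the deposited expression table.

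The samples were polyadenylated RNA from mouse basilar membrane at postnatal day 6, the strip of cochlear tissue on which hair cells and supporting cells sit. The 4 homo libraries are given the genotype Dnajc17 cKO, a conditional knockout, and the 4 hete libraries the genotype WT, so whether the hete animals carry a mutant allele is not settled by the labels. Which driver was used, which cells it reaches and which part of Dnajc17 it removes is not stated in the labels. Replicates are numbered 1 to 4 per group but are not tied to separate animals, so a p-value reflects only the spread among these libraries, and that spread may be technical.

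Values are TPM (transcripts per 1000000), which are corrected for transcript length and library total, so that levels of different genes can be set side by side. TPM keeps no sequencing depth, and no interval that needs read numbers was computed. Fold changes compare homo with hete as differences of log2(TPM + 1), a scale that shrinks the change of weakly expressed genes, with 95% intervals and p-values from limma. The test covered the 17811 genes whose TPM averaged 1 or more across all libraries, and an adjusted p under 0.05 over all of them counted as changed. The targeted gene Dnajc17 was at 29.33, 27.65, 31.08 and 18.04 TPM in homo replicates 1 to 4 and at 22.06 to 26.51 TPM in hete libraries, so homo replicates 1 to 3 lay above every hete value and homo replicate 4 below every one. Which cells and which part of the gene are affected is not stated, so the values from whole tissue neither bear out nor contradict the labels. Homo and hete name here the libraries labelled so. The log2 fold change of Dnajc17 was 0.07 (SE 0.15; limma, adjusted p = 0.969). Hete replicate 1 had the lowest mean log2(TPM + 1) over all tested genes, at 3.84, against 3.885 to 3.94 in the other 7 libraries, and it was the lowest library in most of the gene lists used here. The defining markers of hair cells, supporting cells, neurons, glia and mesenchyme, 13 genes in all, were above 0 in all 8 libraries.

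None of the 6 genes changed between homo and hete by limma at an adjusted p under 0.05, and the homo and hete values of each overlapped. Of all tested genes, 0.0112% changed and 3.99% had groups that did not overlap. Ntf3 and Ntrk3 stood higher in homo and Bdnf and Ntrk2 lower, each by a margin close to the spread between libraries, while Ngfr and Sort1 changed direction when 1 library was left out. At an unadjusted p under 0.05 there were 2 of the 5 genes that passed the filter on low values, Ntf3 and Ntrk3. Of all tested genes, 6.05% had such a p. With quantile normalization of the libraries both genes lay above 0.05 (limma, unadjusted p = 0.0794 for Ntf3 and 0.0552 for Ntrk3). The same held with median-of-ratios rescaling (limma, unadjusted p = 0.0868 and 0.0589). Bdnf did not pass the filter, and its fit is the one with no filter.

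Ntf3 (ENSMUSG00000049107, chromosome 6), which encodes neurotrophin 3, was the higher of the ligand genes. It had 9.36, 10.15, 10.85 and 11.73 TPM in homo replicates 1 to 4, against 9.57, 9.39, 8.41 and 7.82 TPM in hete replicates 1 to 4. Homo replicates 2, 3 and 4 lay above every hete value, and homo replicate 1 lay below hete replicates 1 and 2. The means were 10.5 ± 1.01 TPM in homo and 8.80 ± 0.83 TPM in hete (SD, n = 4 each). This gave a log2 fold change of 0.23 with an SE of 0.10 (interval from 0.01 to 0.46; limma, adjusted p = 0.814).

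Bdnf (ENSMUSG00000048482, chromosome 2), which encodes brain-derived neurotrophic factor, averaged just under the 1 TPM that the test required. It had 0.76, 0.78, 0.79 and 0.95 TPM in homo replicates 1 to 4, against 1.30, 0.93, 1.15 and 0.78 TPM in hete replicates 1 to 4. Hete replicates 1 and 3 lay above every homo value, while hete replicate 4 was level with homo replicate 2. The means were 0.82 ± 0.09 TPM in homo and 1.04 ± 0.23 TPM in hete (SD, n = 4 each). In the fit with no filter the log2 fold change was -0.16 with an SE of 0.14 (interval from -0.465 to 0.15; limma, adjusted p = 0.816). With a pseudocount of 0.1 the difference was -0.29. Bdnf lies on chromosome 2, as does the targeted gene Dnajc17.

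**Figure D1:**
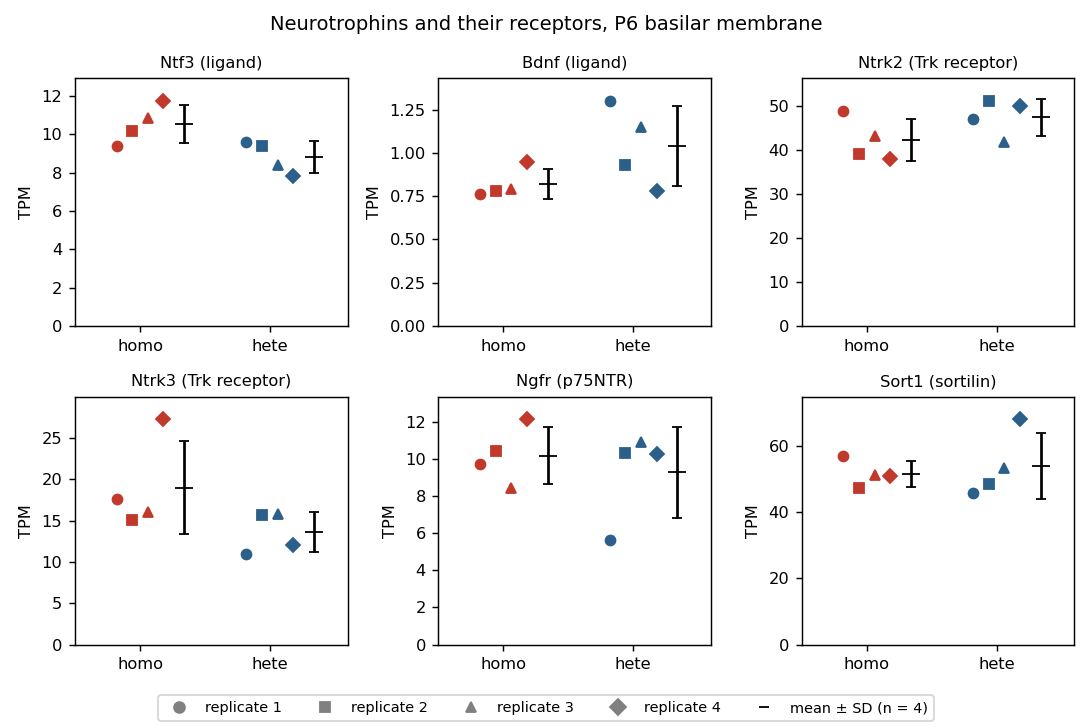
TPM of the 6 genes in each library, homo left and hete right, with points shaped by replicate number and bars for the mean ± SD (n = 4). The homo and hete points overlap for every gene; Ngfr in hete replicate 1 (5.65 TPM) and Ntrk3 in homo replicate 4 (27.26 TPM) stand away from the rest of their groups.

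Ntrk2 (ENSMUSG00000055254, chromosome 13), the TrkB gene, was the higher of the Trk receptor genes. Besides the kinase form it is known to give a truncated form without the kinase domain, made in glia and other cells, and a gene-level value holds both. It had 48.86, 39.14, 43.25 and 38.10 TPM in homo replicates 1 to 4, against 47.06, 51.23, 41.80 and 50.02 TPM in hete replicates 1 to 4. Homo replicates 2 and 4 lay below every hete value, and homo replicate 1 lay above hete replicates 1 and 3. The means were 42.3 ± 4.88 TPM in homo and 47.5 ± 4.20 TPM in hete (SD, n = 4 each), with a log2 fold change of -0.17 with an SE of 0.10 (interval from -0.38 to 0.05; limma, adjusted p = 0.870).

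Ntrk3 (ENSMUSG00000059146, chromosome 7), the TrkC gene, had the largest fold change among the 6. It had 17.64, 15.06, 16.00 and 27.26 TPM in homo replicates 1 to 4, against 10.96, 15.63, 15.79 and 12.09 TPM in hete replicates 1 to 4. Homo replicates 1, 3 and 4 lay above every hete value, replicate 3 only narrowly, and homo replicate 2 lay below hete replicates 2 and 3. The means were 19.0 ± 5.62 TPM in homo and 13.6 ± 2.46 TPM in hete (SD, n = 4 each). The resulting log2 fold change of 0.43 had an SE of 0.19 (interval from 0.01 to 0.85; limma, adjusted p = 0.815), and it was 0.25 without homo replicate 4.

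Ngfr (ENSMUSG00000000120, chromosome 11), which encodes p75NTR and is known from Schwann cells and from the pillar cells of the young organ of Corti, gave its direction through 1 library. It had 9.77, 10.42, 8.43 and 12.15 TPM in homo replicates 1 to 4, against 5.65, 10.36, 10.93 and 10.29 TPM in hete replicates 1 to 4. Hete replicate 1 was far below the other 7 libraries. The means were 10.2 ± 1.55 TPM in homo and 9.31 ± 2.46 TPM in hete (SD, n = 4 each), with a log2 fold change of 0.15 with an SE of 0.19 (interval from -0.28 to 0.57; limma, adjusted p = 0.940). Without hete replicate 1 it was -0.05.

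Sort1 (ENSMUSG00000068747, chromosome 3), which encodes sortilin, a sorting receptor of the Golgi and endosomes as well as the partner of p75NTR, was the highest of the 6. It had 56.83, 47.36, 51.26 and 50.93 TPM in homo replicates 1 to 4, against 45.89, 48.66, 53.27 and 68.02 TPM in hete replicates 1 to 4. All homo values lay inside the hete range. The means were 51.6 ± 3.91 TPM in homo and 54.0 ± 9.86 TPM in hete (SD, n = 4 each), with a log2 fold change of -0.05 with an SE of 0.12 (interval from -0.31 to 0.21; limma, adjusted p = 0.970). Without hete replicate 4, which held the highest value, it was 0.065.

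**Figure D2:**
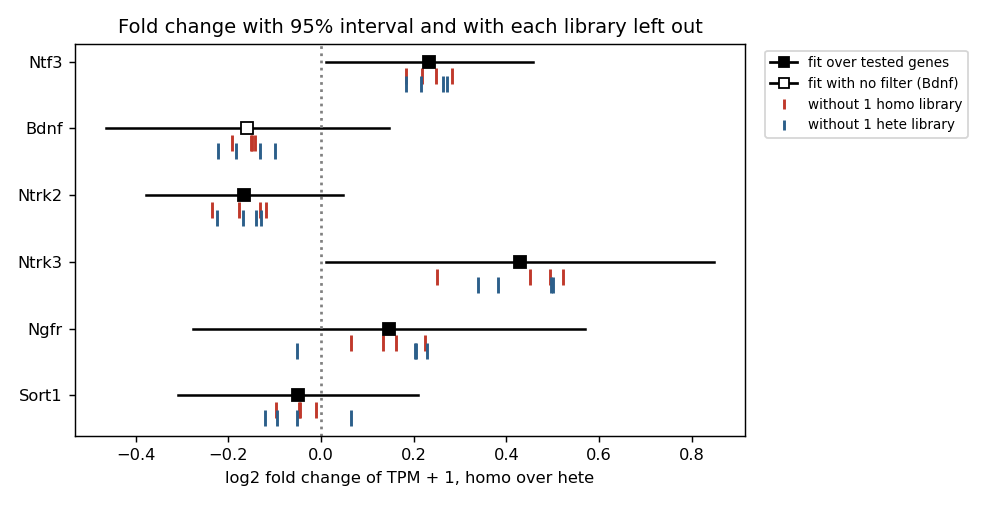
Log2 fold change of TPM + 1, homo over hete, of each gene (squares) with its 95% interval (lines; the open square of Bdnf is from the fit with no filter), and the value with each library left out (ticks, homo or hete by colour). The ticks of Ntf3, Bdnf, Ntrk2 and Ntrk3 stay on 1 side of 0, while those of Ngfr run from -0.05 to 0.23 and those of Sort1 from -0.12 to 0.065.

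By mean level over the 8 libraries, in TPM, the order was Sort1, Ntrk2, Ntrk3, Ngfr, Ntf3 and Bdnf. Sort1 was above Ntrk2 in 6 of 8 libraries, in all 4 homo but only 2 of the 4 hete libraries, and their ranges of 45.89 to 68.02 and 38.10 to 51.23 TPM overlapped. Ntrk2 was above Ntrk3, and Ntrk3 above Ngfr, in all 8 libraries. Ngfr and Ntf3 did not differ beyond their spread, with Ngfr the higher in 6 of 8 libraries. Ntf3 was above Bdnf in all 8. Receptor transcripts outnumbered ligand transcripts in this tissue: Ntrk2 and Ntrk3 together had 4.96 to 6.57 times the TPM of Ntf3 and Bdnf together in homo libraries, and 5.34 to 7.22 times in hete libraries.

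Each ligand was also set against its own receptor within a library, a ratio that does not depend on the scaling of that library. The Ntf3 to Ntrk3 log2 ratio averaged -0.815 ± 0.31 in homo and -0.62 ± 0.30 in hete (SD, n = 4 each), a difference of -0.20 (two-sided exact permutation test, p = 0.429, adjusted over the 2 ratios 0.543). For Bdnf to Ntrk2 the log2 ratio averaged -5.69 ± 0.28 in homo and -5.54 ± 0.42 in hete (SD, n = 4 each), a difference of -0.15 (two-sided exact permutation test, p = 0.543, adjusted 0.543). The smallest p that 4 against 4 libraries allow is 0.0286. The groups overlapped in both ratios.

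Among the neurotrophin genes set side by side here Ntf3 dominated, with 74.5 to 77.9% of the summed TPM of Ntf3, Bdnf and Ntf5 in homo libraries and 67.1 to 74.9% in hete libraries. Ntf5, the neurotrophin 4 gene, held 15.7 to 20.1% in homo and 17.6 to 26.2% in hete. Bdnf held 5.43 to 6.33% in homo and 6.69 to 9.66% in hete, and these shares did not overlap. Ntf3 had 12.3 to 13.7 times the TPM of Bdnf in homo libraries and 7.31 to 10.1 times in hete libraries, without overlap. This is not a separate result, as the share and the ratio rest on the same Bdnf values of 0.76 to 1.30 TPM. How many other gene pairs have ratios without overlap was not computed. Of the Trk receptor genes described here, Ntrk2 had 1.4 to 2.77 times the TPM of Ntrk3 in homo and 2.65 to 4.29 times in hete, so these ratios overlapped, with the low end in homo replicate 4. These shares and ratios were chosen after their values were seen and carry no test.

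**Figure D3:**
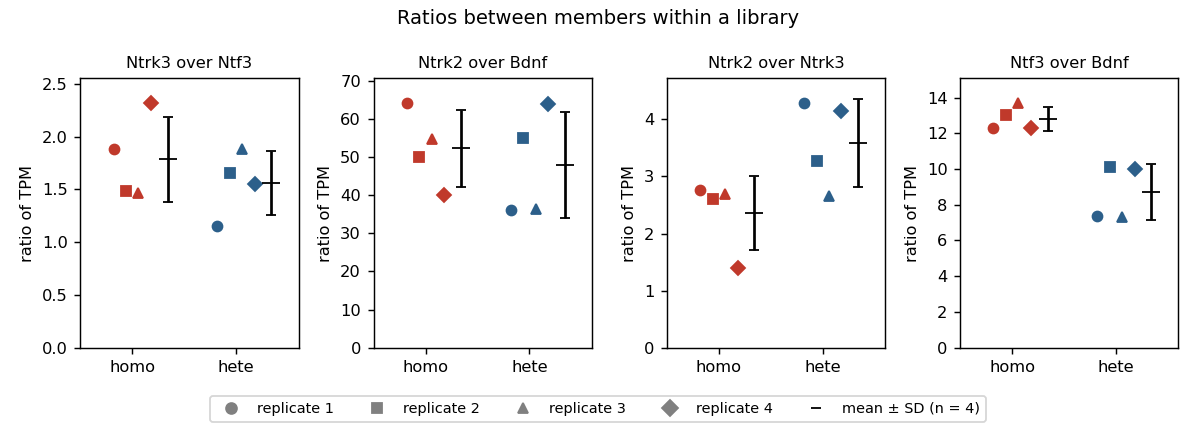
Ratios of TPM between genes within each library, homo left and hete right, with points shaped by replicate number and bars for the mean ± SD (n = 4). Ligand to receptor pairs overlap between groups, while Ntf3 over Bdnf, chosen after its values were seen, lies at 12.3 to 13.7 in homo and 7.31 to 10.1 in hete.

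Neuron markers shared their highest and lowest library with Ntrk3, and glial markers with Ngfr. Ntf3 and Bdnf shared no such ends with the supporting cell and hair cell markers. Ntrk2 was lowest, at 38.10 TPM, in homo replicate 4, where the means of neuron and glial markers were highest. In bulk tissue fewer cells of a type and less RNA per cell cannot be told apart. The 16 neuron markers, led by Tubb3, Nefl and Snap25, summed to 446.9 to 794.3 TPM in homo libraries and 396.1 to 620.5 TPM in hete libraries. Of the 15 that were tested, 14 stood higher in homo, which is 93.3% against 56.3% of all tested genes. Their median log2 fold change was 0.16 against 0.02 over all tested genes. Homo replicate 4 held both the highest Ntrk3 and the highest mean of the neuron markers, and hete replicate 1 the lowest of both. Hete replicate 1 was also the lowest over all tested genes, but by a smaller margin. Its mean log2(TPM + 1) was 3.84 there, with the next library at 3.885. For the neuron markers it was 3.84, against 4.09 to 4.93 in the other libraries. Hete replicates 2 to 4 had neuron marker means of 4.64, 4.53 and 4.17, inside the homo range of 4.09 to 4.93. The higher homo values of these markers thus lean on hete replicate 1, and their count without it was not computed. Hete replicate 1 was not the lowest for hair cell or mesenchyme markers, and what set its low values was not tested. Without hete replicate 1 the log2 fold change of Ntrk3 was 0.34. Set against the mean of the neuron markers in the same library, the difference in Ntrk3 was 0.26 on the log2 scale. The values ran from -0.43 to -0.001 in homo libraries and from -0.585 to -0.26 in hete libraries.

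Genes listed as glial markers of the nerve, among them the transcription factor gene Sox10, summed over 13 genes to 662.6 to 1242 TPM in homo libraries and 626.3 to 1111 TPM in hete libraries. Sox10 itself had 134.95 to 139.56 TPM in homo, inside its range of 117.02 to 162.69 TPM in hete. Which cells of the tissue its transcripts come from was not tested. Of 12 tested, 11 stood higher in homo (median log2 fold change 0.21), which is 91.7% against 56.3% of all tested genes. Hete replicate 1, with the lowest Ngfr, also had the lowest mean of these markers, at 4.17, as it did over all tested genes. Hete replicates 2 to 4 had 4.85, 4.78 and 4.55, inside the homo range of 4.30 to 5.08. Relative to the mean of these markers the difference in Ngfr was -0.05 on the log2 scale, against 0.15 without this scaling.

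Hair cell markers, led by Myo7a, Pou4f3 and Otof, summed over 16 genes to 329.6 to 437.6 TPM in homo libraries and 447.1 to 622.1 TPM in hete libraries. Their mean log2(TPM + 1), which weighs each gene alike, overlapped, at 3.69 to 4.00 in homo and 3.93 to 4.29 in hete. Of the 16, 13 stood lower in homo (median log2 fold change -0.15). At an unadjusted p under 0.05 there were 4 of the 16, all lower in homo. Of the 17811 tested genes, 444 had such a p and stood lower in homo, and 6.05% had one in either direction. Groups did not overlap for 1 of the 16, or 6.25%, with homo the lower. Of the 17811 tested genes, 252 had homo the lower and no overlap, and 3.99% had no overlap in either direction. Relative to the mean of these markers the difference in Bdnf was 0.03, against -0.16 without this scaling. Supporting cell markers, led by Sox2, Prox1 and Fgfr3, summed over 12 genes to 7708 to 8395 TPM in homo and 6828 to 7884 TPM in hete, with 8 of 12 higher in homo (median 0.09), which is 66.7% against 56.3% of all tested genes. Groups did not overlap for 4 of the 12, or 33.3%, all higher in homo, against 2.58% of all tested genes with homo the higher and no overlap. The same 4 had an unadjusted p under 0.05. They were the tectorial membrane genes Tecta, Tectb and Otog and the Notch ligand gene Jag1, named after their values were seen. Their log2 fold changes were 0.56 (SE 0.175), 0.21 (SE 0.07), 0.28 (SE 0.07) and 0.24 (SE 0.07) in that order. Of the 4 markers that stood lower, Hes5 moved the most, at -0.455 with an SE of 0.205 (limma, adjusted p = 0.822). Its groups overlapped, with 3 homo values below every hete value, and it was also named after its values were seen. The defining markers Sox2, Prox1 and Fgfr3 were at 0.05, 0.265 and 0.13, with overlap. Tecta, with the largest fold change, had 614.5 to 687.0 TPM in homo (limma, adjusted p = 0.687). In hete replicates 1 to 4 it had 462.8, 520.3, 537.5 and 290.9 TPM, so the size of its change leans on hete replicate 4. Tectb made up the largest part of the sum over the 12 genes, at 4466 to 4879 TPM in homo and 3847 to 4359 TPM in hete. Relative to the mean of all 12 markers the difference in Ntf3 was 0.13, against 0.23. Mesenchyme markers had 6 of 10 higher in homo (median 0.04), with sums of 4084 to 5056 TPM in homo and 4164 to 4569 TPM in hete. None of the markers in these lists changed over all genes tested, and their part in the values of the 6 genes was not tested beyond this scaling, which was chosen after the data were seen.

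**Figure D4:**
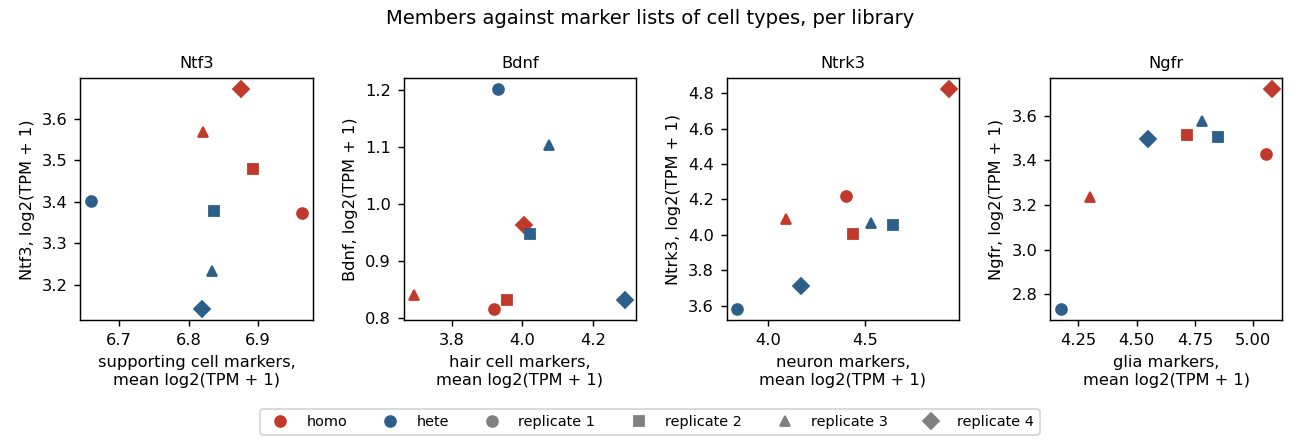
Log2(TPM + 1) of Ntf3, Bdnf, Ntrk3 and Ngfr in each library against the mean log2(TPM + 1) of the tested markers of supporting cells, hair cells, neurons and glia, coloured by group and shaped by replicate number. Homo replicate 4 is highest and hete replicate 1 lowest in both values for Ntrk3 and for Ngfr, while Ntf3 and Bdnf show no such common ends.

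The rest of the pathway was read from lists of 46 genes, of which 43 were tested and none changed over all genes tested. There were 26 higher and 17 lower in homo, with a median log2 fold change of 0.04 against 0.02 over all tested genes. The share that stood higher was 60.5%, against 56.3% of all tested genes. At an unadjusted p under 0.05 there were 4, all higher in homo, where 3.56% of all tested genes had such a p and stood higher. Groups did not overlap for 3 of the 43, all higher in homo, which is 6.98% against 2.58% of all tested genes with homo the higher and no overlap, and 3.99% in either direction. They were Plat, Lrrc4c, which encodes no neurotrophin receptor, and Rtn4r, which averaged 1.15 TPM (limma, unadjusted p = 0.305). All counts of these lists keep Lrrc4c in. By list, 4 of 8 ligand and processing genes (median 0.01), 7 of 10 receptor and co-receptor genes (median 0.14) and 15 of 25 signalling genes (median 0.03) stood higher.

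Plat, tissue plasminogen activator, which makes the plasmin that cleaves neurotrophin precursors, had the smallest p of these lists. It had 90.95, 88.39, 97.03 and 91.71 TPM in homo replicates 1 to 4, against 80.54, 77.78, 80.92 and 80.65 TPM in hete replicates 1 to 4. The groups did not overlap and homo was the higher, with a log2 fold change of 0.20 (SE 0.05; limma, adjusted p = 0.623). Pcsk5, a convertase that cleaves protein precursors, had 17.0 to 21.9 TPM in homo and 13.9 to 17.7 TPM in hete (log2 fold change 0.27, SE 0.105; adjusted p = 0.760). Furin, the convertase best known for neurotrophin precursors and named after its value was seen, was at -0.04 (SE 0.13).

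Lrrc4c, on chromosome 2, encodes a netrin-G ligand and not a neurotrophin receptor, although it stands in the co-receptor list. It had 4.89 to 7.73 TPM in homo and 3.25 to 4.41 TPM in hete (log2 fold change 0.52, SE 0.15; adjusted p = 0.669), also without overlap. Rtn4r, the Nogo receptor that pairs with p75NTR, was the third gene without overlap, at 1.18 to 1.38 TPM in homo and 0.76 to 1.15 TPM in hete (0.17, SE 0.16), and was named after its values were seen. Gab1, a docking protein of tyrosine kinase receptors, had 48.6 to 55.0 TPM in homo and 44.7 to 49.0 TPM in hete, with overlap (0.145, SE 0.06; limma, adjusted p = 0.815).

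**Figure D5:**
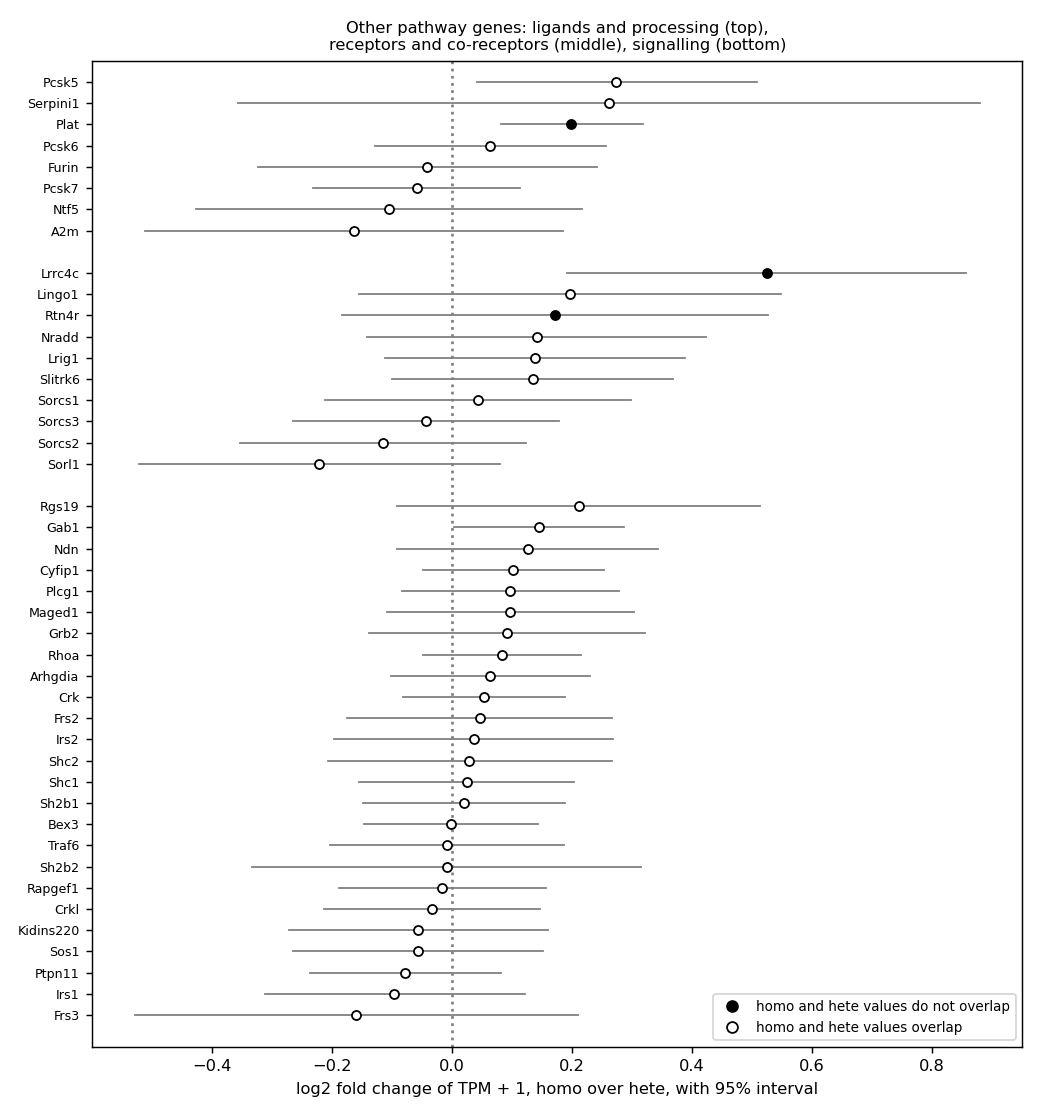
Log2 fold change of TPM + 1, homo over hete, with 95% intervals for the 43 tested pathway genes other than the 6, grouped by list. Filled points mark the 3 genes whose homo and hete values do not overlap (Plat, Lrrc4c and Rtn4r), all higher in homo.

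The deposited annotation places 118 genes, the 6 among them, in the KEGG neurotrophin signaling pathway. Of the 111 that were tested, 70 stood higher and 41 lower in homo, with a median log2 fold change of 0.03. The share that stood higher was 63.1%, against 56.3% of all tested genes. Groups did not overlap for 4, or 3.6%, all higher in homo. Of all tested genes, 2.58% had homo the higher and no overlap, and 3.99% had no overlap in either direction. This list was added after the table was opened.

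The genes most like each of the 6 across libraries were found by the root-mean-square difference of log2(TPM + 1) values centred on each gene's mean over the 8 libraries. For each of the 6, 11402 or 11403 named protein-coding genes averaging 5 TPM or more were searched, so close matches arise without any link. Ccdc136 (0.06) and Mcts2 (0.07) were nearest to Ntf3, whose own spread around its mean was 0.16. Nearest to Bdnf, with a spread of 0.13, were Rex1bd (0.05) and Atp5pd (0.06). Sytl1 (0.05) and Zfyve16 (0.06) were nearest to Ntrk2, with a spread of 0.15. For Ntrk3, with the widest spread of 0.35, they were B3galt1 (0.13) and Brinp1 (0.15). Pcbp3 (0.08) and Bcl2l13 (0.09) were nearest to Ngfr, with a spread of 0.28, and Itih5 (0.03) and Atl2 (0.04) to Sort1, with a spread of 0.17.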

How the data were processed

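The authors deposited 1 expression table with a TPM value per gene and library, rounded to 2 decimals; each library sums to 1000000 with a tolerance of 1. The tools HISAT2, RSEM, StringTie, fastp and DESeq2 appear in the submitters' processing notes with no version and no stated role, together with GRCm39 as genome build. Libraries were stranded mRNA preparations from 1 µg of total RNA, per the labels' protocols. The deposited tables of enrichment and splicing totals were not used, as they hold no value per library.

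From the TPM values, a model of log2(TPM + 1) on genotype alone was fitted to the 8 libraries by limma 3.58.1 (R 4.3.3; trend and robust options), two-sided, with Benjamini-Hochberg adjustment over the 17811 genes averaging 1 TPM or more. The limma fit was also run on simulated data, with noise drawn separately for each gene and library. Such data hold no shift shared by many genes of a library, so nothing about these results is concluded from that run. Ratios were tested by exact permutation in scipy 1.17.1. Figures were drawn with matplotlib 3.10.9. Chromosomes come from GENCODE M21 by Ensembl ID. That annotation is on another build, so no coordinates are given.

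Libraries were grouped by title. The genes, lists and tests were chosen with earlier results of these data known. Named beside the 6 genes and Dnajc17 are any changed pathway gene, the 4 pathway genes with the smallest p, the 2 most alike genes per member, and up to 3 defining markers per cell type. Some genes that the rule or the lists name are not reported here and were left out of the lists. Of the 46 pathway genes kept, 45 were in the table, since 1 entry is an older symbol of another. Alternatives were other normalizations, filters and pseudocounts, eBayes without the robust option, the replicate number as a block and each library left out. Scaling to marker lists was added after the data were seen. Any pair of libraries had equal TPM for at most 1.29% of tested genes.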

Additional observations from a re-analysis of the deposited data

Results flagged for a closer look

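In groups of 4, a library was looked at again where its gap to the nearest other library took up more of the range of its group than Dixon's 95% critical value allows. Of 36 groups checked, 4 held such a library, where chance gives about 1 in 20. Bdnf in homo replicate 4 was high at 0.95 TPM, against 0.76 to 0.79 TPM in the other homo libraries. Ngfr in hete replicate 1 was low at 5.65 TPM, against 10.29 to 10.93 TPM in the other hete libraries, and the mean of the supporting cell markers in the same library was low at 6.66 on the log2(TPM + 1) scale. Plat in hete replicate 2 was low at 77.78 TPM, against 80.54 to 80.92 TPM in the other hete libraries.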

How the results depend on the processing

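None of the 6 genes changed by limma under any alternative that gave a test. Unadjusted and adjusted p ranged from 0.0247 to 0.117 and 0.751 to 0.991 for Ntf3, from 0.0265 to 0.123 and 0.741 to 0.991 for Ntrk3, and from 0.0264 to 0.266 and 0.771 to 0.991 for Ntrk2. With each library left out, the log2 fold change ranged from 0.18 to 0.28 for Ntf3, -0.22 to -0.10 for Bdnf, -0.235 to -0.12 for Ntrk2 and 0.25 to 0.52 for Ntrk3. Ngfr ranged from -0.052 (without hete replicate 1) to 0.23 and Sort1 from -0.12 to 0.065 (without hete replicate 4). Relative to glial markers Ngfr was at -0.054, and relative to hair cell markers Bdnf was at 0.026; with a pseudocount of 0.1 Bdnf was at -0.29. The Ntf3 to Ntrk3 ratio differed by -0.295 to -0.06 with a library left out and the Bdnf to Ntrk2 ratio by -0.31 to -0.03, while with 1 TPM added to each value the Bdnf to Ntrk2 ratio differed by 0.007.

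Over all genes, the count of changed genes was 2 (1078 at an unadjusted p under 0.05), 1 with no filter and 1 to 5 with a library left out. With the replicate number as a block it was 1, and no call among the 6 genes altered. For the ratios, the smallest p that the permutation test allows with this block lies above 0.05. That test could therefore call no ratio changed, and nothing is concluded from it. Same-numbered libraries had correlations of -0.08 to 0.05 between their deviations from the group means, and differently numbered ones -0.08 to 0.06, so the numbers were not taken as pairs. The scalings moved the median log2 fold change of all genes from 0.02 to 0.00. Sequencing depth is unknown, so how far it limits Bdnf, near 1 TPM, could not be computed. The cause of these shifts was not tested.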

Other observations

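The other receptors of the sortilin family (Sorl1, Sorcs1, Sorcs2 and Sorcs3) were all measured, at 9.25 to 43.2 TPM over the 8 libraries. Sorl1, a sorting receptor of endosomes, had 23.8 to 32.9 TPM in homo and 28.6 to 43.2 TPM in hete, with a log2 fold change of -0.22 (SE 0.135; limma, adjusted p = 0.870). Sorcs2, which can pair with p75NTR, had 19.4 to 24.2 TPM in homo and 20.4 to 27.5 TPM in hete. Slitrk6, a membrane protein whose loss in mice reduces cochlear innervation, had 28.4 to 36.1 TPM in homo and 25.4 to 34.6 TPM in hete (log2 fold change 0.135, SE 0.105; limma, adjusted p = 0.889). All of these genes were named after their values were seen, and the homo and hete values of Sorl1, Sorcs2 and Slitrk6 overlapped.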
